A study of Homo sapiens with 6 samples.

Results

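HSP90B1, CRELD2 and HERPUD1 encode proteins of the endoplasmic reticulum (ER) and were taken by gene name from a deposited table of normalized RNA-seq values. All 3 have a row, among 1630 genes listed. The cells were U87MG, an established human glioblastoma line. The shCREPT group, 3 libraries labelled CREPT Knockdown, carried a short hairpin RNA against CREPT, a protein that binds RNA polymerase II and is encoded by RPRD1B. The shControl group, 3 libraries of genotype NC, carried a control hairpin. The comparison asks what targeting CREPT changes in these cells. Library names number the shCREPT libraries sh1 to sh3, and the labels do not say whether these are cultures of the same hairpin or different hairpins, nor whether any libraries came from separate cultures. The p-values therefore rest on how far these libraries spread, and that spread could be technical.

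The authors marked each of the 1630 listed genes (100%) as different between the groups, 657 higher and 973 lower in shCREPT, with no absolute log2 fold change under 1.0009. The 3 ER genes thus had to differ to be present, and no test of this same contrast is independent evidence for them. RPRD1B has no row and its level was not analysed here. The number of reads is unknown. Summed over the listed genes, a library held 31894 to 33331. Of 12 glioma and astrocyte markers, 5 have a row, and their summed value was 82.0 to 98.3 in shCREPT and 553 to 587 in shControl. Among them the astrocyte filament GFAP averaged 45.5 ± 3.75 in shCREPT and 434 ± 13.5 in shControl (SD, n = 3 each), and S100B was listed at 0 in shCREPT library 2. The 9 microglia and macrophage markers and the 5 T cell markers searched for are all without a row. The 2 listed endothelial markers, CDH5 and KDR, summed to 11.6 to 13.7 in shCREPT and 43.3 to 45.3 in shControl. The fibroblast marker COL1A2 had 432 to 492 in shCREPT and 1084 to 1099 in shControl, and the epithelial marker KRT19 had 0.33 to 1.19 in shCREPT and 3.06 to 3.66 in shControl. The part of these shifts in the results below was not tested. In bulk RNA of a cultured line, fewer cells that express a gene and less RNA per cell cannot be told apart. The marker names do not show that other cell types were present.

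The ER folds proteins that enter the secretory pathway, and cells respond to unfolded protein there through the unfolded protein response, whose sensors are IRE1, PERK and ATF6. Activated ATF6 and spliced XBP1 bind ER stress response elements in promoters and raise chaperones and degradation factors, while PERK acts through the transcription factor ATF4. HSP90B1 encodes GRP94, the HSP90-type chaperone of the ER lumen, which folds integrins, Toll-like receptors and insulin-like growth factors. CRELD2 encodes a cysteine-rich ER protein that is induced by ER stress. HERPUD1 encodes HERP, a membrane protein with a ubiquitin-like domain that helps assemble the HRD1 complex of ER-associated degradation. HSP90B1 lies on chromosome 12 (103930107 to 103953645, plus strand, GRCh38), CRELD2 on chromosome 22 (49918167 to 49927540, plus strand) and HERPUD1 on chromosome 16 (56932048 to 56944863, plus strand), each protein-coding in GENCODE v29.

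The 250 bases before the RefSeq start site (GRCh38.p14) of each of the 3 genes were searched on both strands for 5 motifs of this response. These were ERSE (CCAAT, 9 free bases, CCACG), ERSE-II (ATTGG, 1 free base, CCACG), the UPRE core (TGACGTGG), the ATF4-type CARE (TGATGNAA) and CRE (TGACGTCA). Each of the 3 promoters held an exact ERSE or ERSE-II. Genes and motifs were both picked for their tie to ER stress, so these matches are not an independent finding. HSP90B1 held 2 ERSE copies, at chr12:103930216-103930234 on the plus strand and chr12:103930321-103930339 on the minus strand. CRELD2 held 1 ERSE, at chr22:49918554-49918572 on the minus strand. HERPUD1 held 1 ERSE-II, at chr16:56932025-56932035 on the plus strand, and 1 CARE, at chr16:56931966-56931973 on the minus strand. No UPRE core or CRE was in these windows. The elements are shown in plus strand text with 5 bases on either side, so a copy on the minus strand reads CGTGG before ATTGG. Capitals mark the element.
HSP90B1 ERSE, plus strand (chr12:103930211-103930239): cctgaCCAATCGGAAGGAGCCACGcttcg
HSP90B1 ERSE, minus strand (chr12:103930316-103930344): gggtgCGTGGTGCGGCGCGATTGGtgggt
CRELD2 ERSE, minus strand (chr22:49918549-49918577): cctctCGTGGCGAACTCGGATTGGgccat
HERPUD1 ERSE-II, plus strand (chr16:56932020-56932040): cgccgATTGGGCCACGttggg

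The stretch of each window outside annotated untranslated regions shows the surroundings of the CRELD2 and HERPUD1 elements. All 250 bases of the HSP90B1 window lie in untranslated exons of alternative GENCODE v29 transcripts, so no longer stretch of it is shown. In the HERPUD1 line the capitals mark the CARE and then the ERSE-II.
CRELD2 promoter (chr22:49918459-49918633, plus strand): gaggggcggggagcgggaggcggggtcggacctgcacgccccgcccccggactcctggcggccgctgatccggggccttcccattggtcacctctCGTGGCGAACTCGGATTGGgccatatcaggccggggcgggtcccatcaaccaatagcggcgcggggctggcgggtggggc
HERPUD1 promoter (chr16:56931892-56932047, plus strand): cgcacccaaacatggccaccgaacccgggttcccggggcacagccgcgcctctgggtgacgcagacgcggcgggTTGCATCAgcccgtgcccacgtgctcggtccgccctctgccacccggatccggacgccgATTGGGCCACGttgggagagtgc

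ERSE was found in 26 of 35116 RefSeq promoter windows of this length (0.074%) and ERSE-II in 18 (0.0513%), against 3.14% for CARE. Their shared parts are common: CCAAT occurred in 32% of windows and CCACG in 33.5%. HSP90B1 held 5 CCAAT boxes, CRELD2 held 3 and HERPUD1 held 2, counting those inside the elements. Counted by gene, 0.0916% of the 27305 genes with a window held ERSE and 0.0659% held ERSE-II. Of 970 listed genes with a window, 2 held ERSE (0.206%), namely HSP90B1 and CRELD2, and 1 held ERSE-II (0.103%), namely HERPUD1. The other 23 genes with an ERSE and the other 17 with an ERSE-II have no row. They include the ER chaperones HSPA5 (BiP), CALR, CANX, HYOU1 and SDF2L1, the disulfide isomerase PDIA6 and the transcription factor XBP1, named after the search was seen. Others are not ER chaperones, such as GLRA2, NLRP4, TRIM5 and ZNF17 with an ERSE and CAMTA1, NAV2, RAD9A and ZNF143 with an ERSE-II. A gene without a row may have missed the authors' threshold or been left out otherwise, so a missing row does not show an unchanged level. A motif match is a description of the sequence, and binding was not measured.

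**Figure D1:**
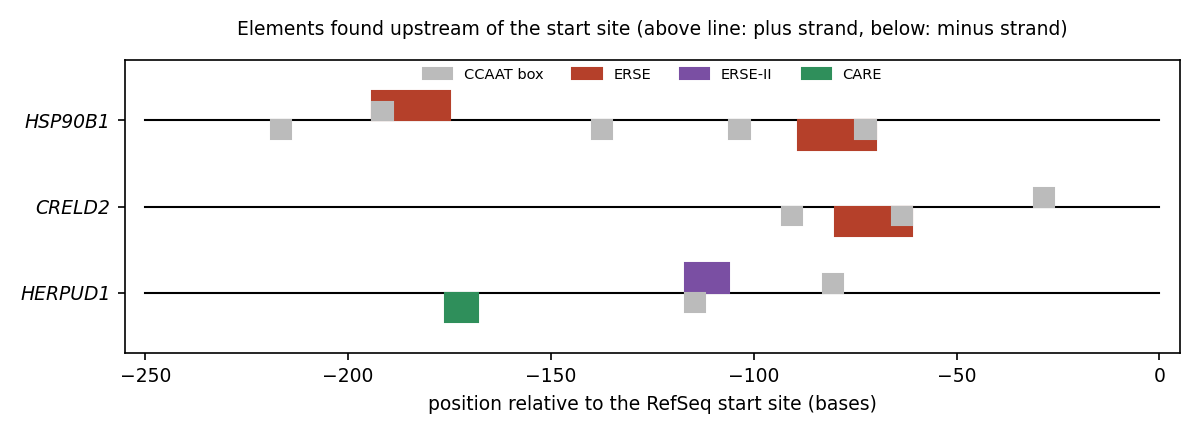
Elements in the 250 bases before the RefSeq start site of HSP90B1, CRELD2 and HERPUD1, by distance from that site in bases; boxes above a line are on the plus strand and boxes below it on the minus strand. The ERSE copies of HSP90B1 begin 194 and 89 bases before the site, that of CRELD2 80 bases and the ERSE-II of HERPUD1 117 bases before it.

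HSP90B1, CRELD2 and HERPUD1 were all lower in shCREPT than in shControl, HSP90B1 and CRELD2 at 47.9% of the shControl mean and HERPUD1 at 39.4%. Values are the authors' normalized values on a linear scale. Whether they are per length is not stated, so the levels of different genes are not compared. HSP90B1 had 547, 587 and 587 in shCREPT and 1174, 1226 and 1196 in shControl. The 3 shCREPT libraries lay close together, and each was below every shControl library. The means were 574 ± 23.4 in shCREPT and 1199 ± 25.7 in shControl (SD, n = 3 each). The log2 change in limma, on log2(value + 1), was −1.06 ± 0.08 (SE; adjusted p = 2.39e-05).

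CRELD2 had values of 32.4, 30.7 and 33.3 in shCREPT and 69.3, 64.4 and 67.5 in shControl. The groups did not overlap, and library 2 was the lowest of its group in both. The means were 32.1 ± 1.31 in shCREPT and 67.1 ± 2.47 in shControl (SD, n = 3 each), and the log2 change was −1.04 ± 0.08 (SE; limma adjusted p = 2.84e-05).

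HERPUD1 had values of 65.3, 80.7 and 85.9 in shCREPT and 203, 194 and 192 in shControl. The groups did not overlap, but the shCREPT libraries spread more, with library 1 below the other two. The means were 77.3 ± 10.7 in shCREPT and 196 ± 6.13 in shControl (SD, n = 3 each), a coefficient of variation of 13.8% in shCREPT and 3.12% in shControl. The log2 change was −1.34 ± 0.12 (SE; limma adjusted p = 4.86e-05). In the authors' deposited table the log2 fold changes are −1.04 for HSP90B1, −1.06 for CRELD2 and −1.23 for HERPUD1, with adjusted p-values of 1.6e-178, 3.57e-41 and 6e-95.

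**Figure D2:**
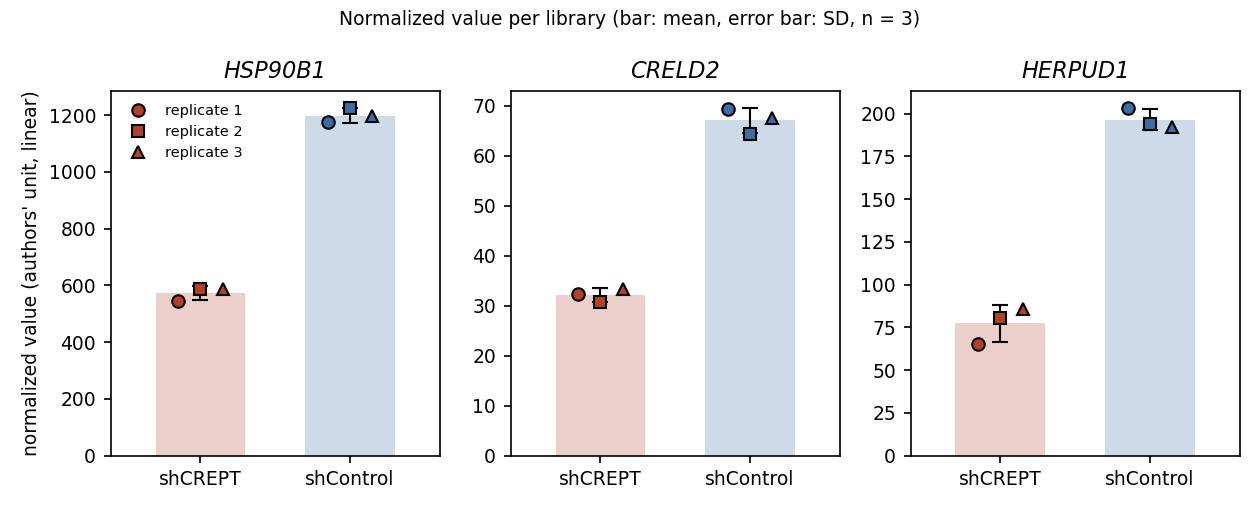
Normalized value (authors' unit, linear axis from 0) of the 3 genes in each library, with shCREPT left of shControl; bars are means, error bars SD (n = 3), and symbols the replicate number. In every panel the 3 shCREPT libraries sit below the 3 shControl libraries, and HERPUD1 has its widest spread in shCREPT, from 65.3 to 85.9.

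These calls have to be read against a table in which nearly every gene passes. In the same limma fit over 1184 genes, 97.9% had an adjusted p under 0.05; 57.3% of the genes were called lower and 40.6% called higher in shCREPT. Groups did not overlap in 56.6% of tested genes with shCREPT lower and in 40.2% with shCREPT higher. An exact two-sided permutation test on each of the 3 genes gave p = 0.1, the smallest that 3 against 3 libraries allow. How large the falls rank depends on which genes they are set against. Of the 973 genes marked down, 56 have a smaller fall than HSP90B1 in the authors' deposited table, 86 a smaller one than CRELD2 and 249 a smaller one than HERPUD1. The median log2 fold change of the marked-down genes there is −1.58, and HSP90B1, at −1.04, lies just past the smallest absolute value listed, 1.0009. That ranking includes genes too low for the limma fit. Among the 1184 genes in the fit, 31.1% had a lower log2 change than HSP90B1, 32.5% a lower one than CRELD2 and 16% a lower one than HERPUD1, and the median over genes called lower was −1.11.

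How large the falls are depends on scaling. Over all tested genes the median log2 change was −0.76. A median-of-ratios rescaling over the listed genes raised the shCREPT libraries by 0.88 log2 units relative to shControl and moved that median to −0.13. Under it, HSP90B1 and CRELD2 each had a log2 change of −0.18 and no longer passed (limma adjusted p = 0.0668 and 0.0767), in a fit where 73.4% of genes passed, 31.8% lower and 41.6% higher. HERPUD1 had −0.47 and still passed (limma adjusted p = 0.0094). Rescaling each library to its listed sum, by contrast, shifted the groups by 0.008. The median-of-ratios factor comes from listed genes. All were marked as different, 59.7% of them down, so no unchanged majority stands behind it. A call lost under it therefore does not show an unchanged level. Which scaling is nearer to the cells cannot be settled from a table that holds selected genes alone.

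**Figure D3:**
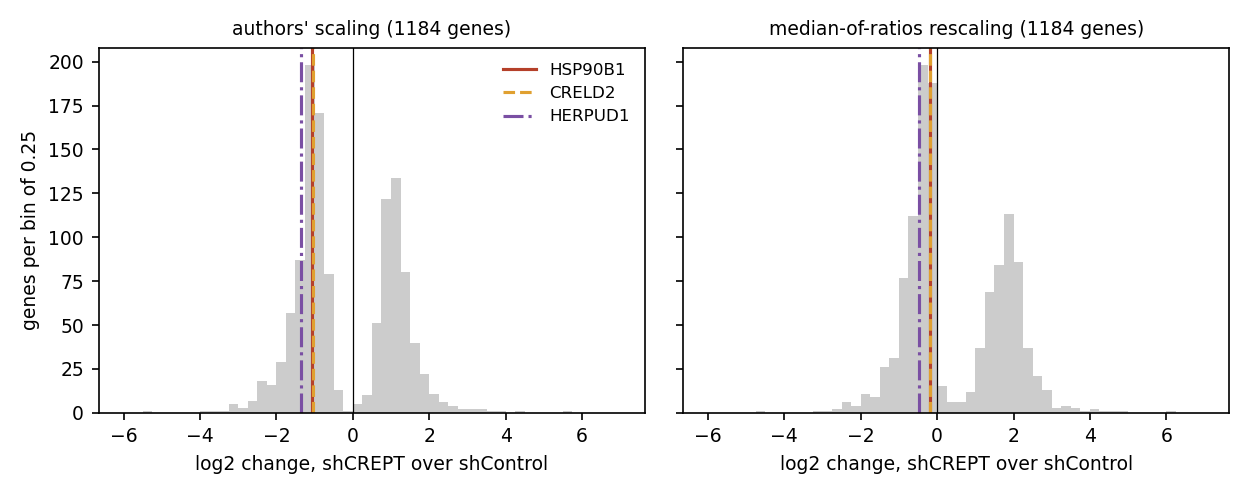
Log2 change (shCREPT over shControl) of 1184 tested genes in bins of 0.25, with the authors' scaling at left and median-of-ratios rescaling at right; vertical lines mark the 3 ER genes. With the authors' scaling there are few genes near 0, and HSP90B1 and CRELD2 stand at −1.06 and −1.04, against −0.18 each after rescaling.

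Ratios of 2 of these genes within a library do not move with any scaling of whole libraries. Rows were not selected on these ratios, but the selection of each gene alone still bounds them. No listed gene has an absolute log2 fold change under 1.0009, and HSP90B1 (−1.04) and CRELD2 (−1.06) both lie just past it. Falls of like size also occurred outside ER biology, as in STEAP3 and LINC00461 (−1.09 and −1.04 in limma). CRELD2 and HSP90B1 kept an almost fixed ratio. On the log2 scale CRELD2 over HSP90B1 was −4.08, −4.26 and −4.14 in shCREPT and −4.08, −4.25 and −4.15 in shControl. The groups overlapped throughout. The difference between the group means was 0.001 ± 0.071 (SE), and differences between single libraries of the groups ran from −0.174 to 0.171 (exact two-sided permutation p = 1). With 3 libraries per group this exact test cannot go below p = 0.1. It could therefore not detect a difference of any size between the falls of CRELD2 and HSP90B1.

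HERPUD1 was lower against both of the others. HERPUD1 over HSP90B1 was −3.07, −2.86 and −2.77 in shCREPT and −2.53, −2.66 and −2.64 in shControl on the log2 scale, a difference of −0.290 ± 0.095 (SE). HERPUD1 over CRELD2 was 1.01, 1.39 and 1.37 in shCREPT and 1.55, 1.59 and 1.51 in shControl, a difference of −0.291 ± 0.125 (SE). Neither pair overlapped between the groups, and shCREPT library 1 was the farthest out in both. The exact two-sided permutation p was 0.1 for each, the smallest possible, and 0.15 after Benjamini-Hochberg adjustment over the 3 pairs. With 3 libraries per group this test cannot reach the threshold of 0.05, so it could not decide on either difference. Without shCREPT library 1 the differences were −0.208 and −0.169.

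**Figure D4:**
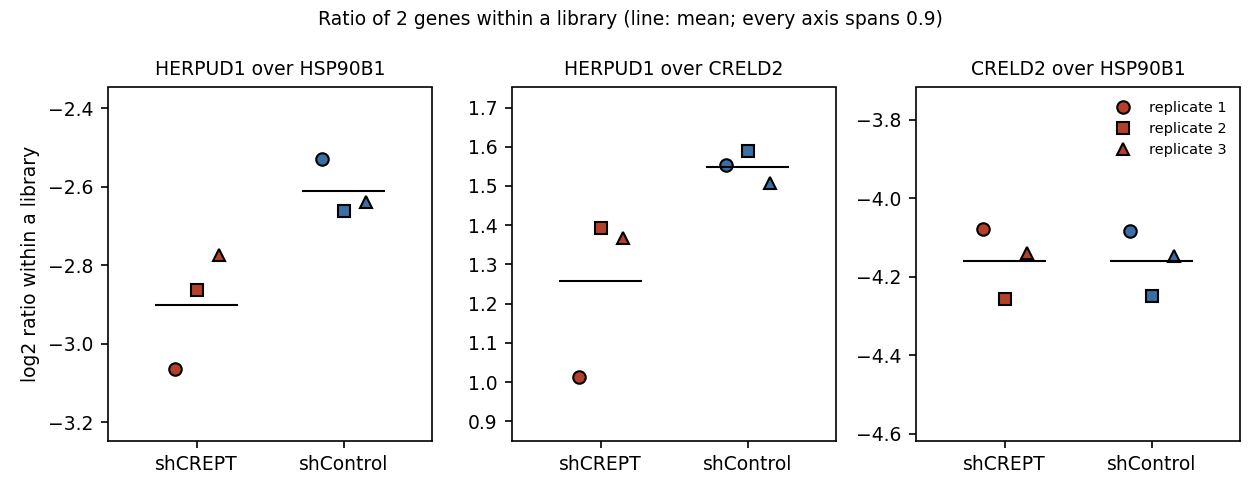
Log2 ratio of 2 genes within each library, with shCREPT left of shControl; lines are group means, symbols the replicate number, and every axis spans 0.9 log2 units. The mean of CRELD2 over HSP90B1 is −4.16 in both groups, while both HERPUD1 ratios are lower in all 3 shCREPT libraries.

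Few of the other ER genes have a row, as holds for genes at large. Of 27305 genes with a RefSeq promoter window, 970 are listed. Of 201 genes on 8 ER and unfolded protein response lists, 191 have no row. The 10 that do, the 3 genes above included, are all marked down by the authors, against 59.7% of listed genes marked down. Of the 9 tested, 9 passed and were lower, where 57.3% of all tested genes were, with a median log2 change of −1.08, beside −0.76 over all tested genes. Under median-of-ratios rescaling 5 of the 9 passed and were lower, where 31.8% of all tested genes were, and the median was −0.30, beside −0.13 over all tested genes. The 3 genes were picked beforehand and the lists were chosen with earlier results of these data known, so these counts are not independent support. Leaving out the 3, all 6 tested genes passed and were lower, with a median of −1.12. Under the rescaling 4 of these 6 did, with a median of −0.31. No disulfide isomerase or oxidase (of 21), no calnexin cycle or glycan processing gene (of 18) and no sensor or transcription factor of the response (of 18) has a row. Of 30 lumenal chaperones and cochaperones the 2 with a row are HSP90B1 and CRELD2.

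Of 37 genes of ER-associated degradation, HERPUD1 and DERL3 have a row. DERL3, a derlin induced by ER stress, had 1.80, 1.16 and 1.48 in shCREPT and 3.39, 2.85 and 4.76 in shControl. The groups did not overlap, and the log2 change was −0.90 ± 0.17 (SE; limma adjusted p = 0.00211). It lost its call under median-of-ratios rescaling (−0.29, limma adjusted p = 0.162). In the early secretory list, 1 gene of 32 has a row. It is KDELR3, a receptor that returns KDEL-tailed chaperones such as GRP94 to the ER. KDELR3 had 31.3, 29.7 and 30.6 in shCREPT and 77.9, 71.3 and 70.7 in shControl. No shCREPT library came near a shControl one, and in limma the log2 change was −1.23 ± 0.08 (SE; adjusted p = 1.65e-05). The KDELR3 promoter held 1 UPRE core, which 0.612% of windows and 0.78% of genes with a window hold. So did 9 of 970 listed genes with a window (0.928%), KDELR3 and the integrin gene ITGA11 among them. DERL3 had no window to search. KDELR3 kept its call under that rescaling (−0.37, limma adjusted p = 0.0046).

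Of 27 targets of the PERK-ATF4 arm, VLDLR and DDIT4 have a row, while DDIT3, ATF3, TRIB3, CHAC1 and ASNS do not. VLDLR, a lipoprotein receptor, averaged 33.4 ± 1.18 in shCREPT and 72.0 ± 4.93 in shControl, and DDIT4, an inhibitor of mTORC1 signalling that also responds to hypoxia, averaged 93.7 ± 5.89 in shCREPT and 253 ± 15.5 in shControl (SD, n = 3 each). Their log2 changes were −1.08 ± 0.09 and −1.42 ± 0.09 (SE; limma adjusted p = 3.43e-05 and 1.56e-05). Under median-of-ratios rescaling VLDLR had −0.22 (limma adjusted p = 0.0541) and DDIT4 −0.55 (limma adjusted p = 0.00121). Neither promoter window held any of the 5 motifs.

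Among 18 genes of ER calcium handling, 3 release channels have a row. ITPR1 averaged 13.8 ± 0.886 in shCREPT and 32.1 ± 2.03 in shControl, and ITPR2 averaged 2.43 ± 0.298 in shCREPT and 5.79 ± 0.274 in shControl (SD, n = 3 each). Both inositol trisphosphate receptors fell, with log2 changes of −1.16 ± 0.09 and −0.99 ± 0.09 (SE; limma adjusted p = 3.15e-05 and 7.22e-05). The ryanodine receptor RYR2 was too low to test, at 0.39, 0.20 and 0.49 in shCREPT and 0.65, 0.38 and 0.45 in shControl, and its groups overlapped.

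The heat shock proteins of other compartments did not share 1 direction. TRAP1, the HSP90 paralog of mitochondria, had 132, 128 and 120 in shCREPT and 45.6, 45.9 and 46.1 in shControl. The groups were far apart, and the log2 change was 1.45 ± 0.08 (SE; limma adjusted p = 9.83e-06), a 2.76-fold rise. HSP90B1, the HSP90 protein of the ER, was 2.09-fold lower in the same libraries. On the log2 scale TRAP1 over HSP90B1 was −2.05, −2.20 and −2.29 in shCREPT and −4.69, −4.74 and −4.70 in shControl, a difference of 2.53 that no scaling of whole libraries can alter. It was chosen after its values were seen and was not tested. The cytosolic HSP90AA1 and HSP90AB1 have no row. The small heat shock protein CRYAB fell 10.3-fold, to 4.81 ± 0.361 in shCREPT against 49.7 ± 3.24 in shControl (SD, n = 3 each). HSPA2, an HSP70 protein best known in testis, averaged 0.480 ± 0.0917 in shCREPT and 1.26 ± 0.140 in shControl (SD, n = 3 each), and the other 28 of the 31 on that list have no row.

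Of 41 genes from families that GRP94 is known to fold, 32 have no row. Of the 9 with a row, 8 are marked down by the authors and 1 up, where 59.7% of all listed genes are marked down. Only 4 of the 9 were high enough to test, of which 3 passed and were lower and 1 passed and was higher; under median-of-ratios rescaling 2 passed and were lower and 1 higher. ITGA7, ITGB4 and ITGB8 fell and ITGA2 rose, all integrin subunits. ITGA2, a part of the collagen receptor, averaged 48.3 ± 3.23 in shCREPT and 23.7 ± 0.502 in shControl, and ITGA7, a laminin receptor subunit, averaged 16.1 ± 1.40 in shCREPT and 43.5 ± 0.907 in shControl (SD, n = 3 each). ITGB8, which pairs with the αv subunit, averaged 14 ± 0.941 in shCREPT and 32.5 ± 1.03 in shControl (SD, n = 3 each). ITGB4, a laminin receptor subunit of hemidesmosomes, averaged 328 ± 22.5 in shCREPT and 636 ± 72.7 in shControl (SD, n = 3 each) and lost its call under median-of-ratios rescaling (limma adjusted p = 0.568). TLR5, IGF1, ITGA9, ITGA11 and ITGB2 were too low to test, and the groups overlapped for TLR5. These are RNA levels, so they say nothing of how the proteins fold.

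**Figure D5:**
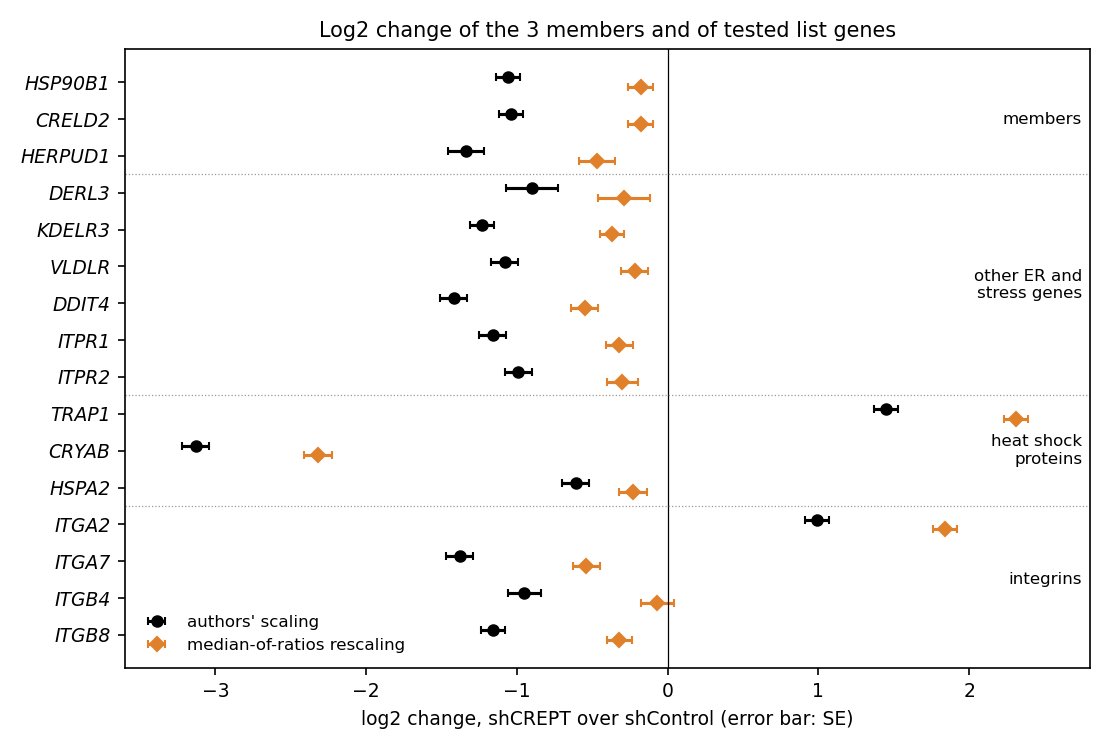
Log2 change (shCREPT over shControl) with its SE for the 3 ER genes, other ER and stress genes, heat shock proteins of other compartments and integrins, with the authors' scaling (black) and median-of-ratios rescaling (orange). The ER and stress genes lie between −1.42 and −0.90 with the authors' scaling and nearer 0 after rescaling, while TRAP1 and ITGA2 lie above 0 in both.

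Across the 6 libraries, the genes whose profiles lay closest to each of the 3 were mostly outside ER biology. Likeness was the root mean square difference between log2 profiles centred on shControl, ranked over 413 genes with a mean of at least 5 in both groups. Apart from the 3, only DDIT4, VLDLR, KDELR3 and ITPR1 of the 8 ER lists were among those 413. Near profiles outside ER biology were therefore likely beforehand. Closest to HSP90B1 were the metalloreductase STEAP3 (0.044), the arginine synthesis enzyme ASS1 (0.048) and the keratin KRT6A (0.051). Closest to CRELD2 were the noncoding RNA LINC00461 (0.044) and STEAP3 (0.053). Closest to HERPUD1 were ITGA7 (0.078), DENND2A (0.080) and the cadherin CDH11 (0.082). CRELD2 ranked 13 for HSP90B1, and HSP90B1 ranked 8 for CRELD2. HERPUD1 ranked 132 and 144 for them. The measure reads the size of the change along with the spread between libraries, and every listed gene was picked for this contrast.

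Each of the 3 loci overlaps other annotated genes, and the labels do not say whether the libraries keep the strand. HSP90B1 overlaps C12orf73 and the pseudogene TTC41P on the opposite strand, and has 2 processed pseudogenes elsewhere, HSP90B2P and HSP90B3P, which could take some of its reads. CRELD2 overlaps ALG12 on the opposite strand, a mannosyltransferase gene of the ER that also holds the shared ERSE in its own window. None of these 5 genes has a row. HERPUD1 contains 2 RNAs annotated as sense intronic on its own strand, of which AC012181.1 (ENSG00000261114) has a row, with 0.39, 1.39 and 1.95 in shCREPT and 4.65, 3.41 and 2.56 in shControl. It lies inside HERPUD1, so its reads and those of unspliced HERPUD1 RNA cannot be told apart here.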

How the data were processed

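Total RNA was sequenced in 6 libraries made with NEBNext Ultra reagents, per the labels. HISAT2, HTSeq and GRCh38 are named in the submitters' processing notes, without versions or roles. The deposited table gives 1 normalized signal per gene and library, made by a normalization that the sources used here do not describe. Further columns hold, per the file headers, a fold ratio from the authors with its log2 form, and p-values before and after adjustment. Depth is unknown and no count test was run. Any 2 libraries differed in at least 96.0% of rows. All 6 value columns were mapped by library name.

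Values were transformed as log2(value + 1), which understates changes of low genes. Genes reaching a value of 1 in 3 or more libraries were kept (1184; 446 left out) and compared with limma 3.58.1 (R 4.3.3; no trend, robust option or covariate) with Benjamini-Hochberg adjustment over all tested genes. The step was tested on simulated data. Ratios within a library were compared with exact permutation tests (scipy 1.17.1). Coordinates came from GENCODE v29 and promoter windows from RefSeq GRCh38.p14, where each of the 3 genes had 1 window. Protein sequences were not used here. Alternatives were other pseudocounts (0.1, 5), filters, scalings and limma options, the replicate number as a block and leaving out each library. Named were the 3 genes, every listed gene of the 8 ER lists, up to 4 from each other list and the 3 nearest profiles per gene, of which 1 is not reported here; others are said to be chosen later, as are marker, neighbouring and overlapping genes, which were looked up for description. The CCAAT and CCACG parts were added to the motif search after its results were seen. The members and gene lists were chosen with earlier results of these data known.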

Additional observations from a re-analysis of the deposited data

How the results depend on the processing

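HERPUD1 kept its direction and its call under all 15 alternatives (log2 change −1.42 to −0.47, limma adjusted p up to 0.0094). HSP90B1 and CRELD2 did so under 14 of 15. Under median-of-ratios rescaling each had −0.18 (limma adjusted p = 0.0668 and 0.0767). That rescaling raises shCREPT by 0.88 log2 units relative to shControl. It takes its factor from genes all marked as different, so a lost call does not show an unchanged level. The same rescaling gave 377 genes lower, 5 rather than 9 ER list genes lower (DERL3 and VLDLR also lost their call), 1 rather than 2 other heat shock genes lower (HSPA2 lost it) and −0.07 for ITGB4. A minimum of 10 in 3 libraries left 485 calls, 214 higher and 271 lower, since fewer genes were tested. With no filter on low values 6 rather than 3 GRP94 client genes were lower, since low genes entered. Fits without 1 of the libraries gave 1137 to 1152 calls (475 to 481 higher, 662 to 672 lower), and log2 changes of −1.08 to −1.03 for HSP90B1, −1.07 to −1.01 for CRELD2 and −1.42 to −1.23 for HERPUD1. The ratio of CRELD2 to HSP90B1, near 0 in its difference, changed sign in 3 of these 6 fits (−0.043 to 0.051). The differences ran from −0.353 to −0.208 for HERPUD1 over HSP90B1 and −0.359 to −0.169 for HERPUD1 over CRELD2. Deviations of same-numbered libraries were not shared (r = −0.109, 0.018 and −0.179), so the numbers were not taken as pairs; with the replicate block 1156 genes were called and the 3 genes kept their calls, and exact sign flips of the 3 pairs cannot go below p = 0.25. With the depth unknown, no detection limit can be given.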

Other observations

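A search of the gene descriptions for words such as chaperone, heat shock, endoplasmic, reticulon and prolyl, chosen after the data were seen, found 10 rows, of which 7 were on none of the lists. P3H2, a prolyl 3-hydroxylase that modifies collagen in the ER, averaged 5.94 ± 0.560 in shCREPT and 25.9 ± 5.52 in shControl (SD, n = 3 each; log2 change −1.94 ± 0.16, SE, limma adjusted p = 3.58e-05). RTN2, a reticulon that shapes ER tubules, had 1.54, 2.56 and 2.31 in shCREPT and 5.59, 10.2 and 5.25 in shControl. HSF4, a heat shock transcription factor known from the lens, had 4.20, 8.13 and 5.73 in shCREPT and 19.8, 13.5 and 13 in shControl; RTN2 and HSF4 fell in limma with the authors' scaling (adjusted p = 0.00203 and 0.00229) and missed the threshold under median-of-ratios rescaling (adjusted p = 0.0571 and 0.136). Of the same rows, the histone chaperone ASF1B averaged 85.8 ± 1.34 in shCREPT and 43.2 ± 1.58 in shControl, and the mitochondrial assembly factor PET117 averaged 3.63 ± 0.790 in shCREPT and 1.05 ± 0.145 in shControl (SD, n = 3 each; limma adjusted p = 3.05e-05 and 0.000245). TSACC, a testis cochaperone, had 1.47, 1.72 and 1.73 in shCREPT and 0.16, 0 and 0 in shControl. The pseudogene PPIAP46 was too low to test and its groups overlapped.

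Most neighbours of the 3 genes have no row, as holds for genes at large (970 of 27305 genes with a promoter window are listed). Within 500 kb of HSP90B1, 1 of 26 other annotated genes does (GLT8D2, with −1.07 as the log2 fold change in the authors' deposited table), and within 500 kb of CRELD2, 1 of 44 (DENND6B, −1.50). Near HERPUD1, 4 of 53 do. MT1F (−1.98), AC009090.5 (−1.61) and AC012181.1 (−1.51), which lies inside HERPUD1, are lower there, and CX3CL1 (1.73) alone is higher. The metallothionein MT1F averaged 41.3 ± 8.32 in shCREPT and 212 ± 18.7 in shControl, while the chemokine CX3CL1 averaged 77.2 ± 0.957 in shCREPT and 23.7 ± 2.51 in shControl (SD, n = 3 each).

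In every pair of same-numbered libraries the log2 ratio of CRELD2 to HSP90B1 was nearly equal, at −4.079 in shCREPT and −4.083 in shControl for number 1, −4.257 in shCREPT and −4.250 in shControl for number 2, and −4.141 in shCREPT and −4.147 in shControl for number 3. This was noticed after the values were seen, and the same numbers showed no shared deviation over all tested genes.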
